A study of Mus musculus with 6 samples.

Results

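The Ly6 surface antigens are small proteins held on the outer face of the membrane by a glycosylphosphatidylinositol (GPI) lipid anchor, and their genes lie together on mouse chromosome 15. They are described here for 8 genes, Ly6a, Ly6c1, Ly6c2, Ly6e, Ly6f, Ly6g, Ly6i and Ly6k. Their members on the array are the 10 non-control probes that carry one of these gene names, of 56605 probes in all: 2 each for Ly6c1 and Ly6k and 1 for each of the others. The samples were monocytes of C57BL/6J mice aged 6 to 8 weeks, isolated from bone marrow by magnetic sorting and cultured for 60 h. The IFN-beta group (3 samples) received 20 ng/mL M-CSF with 100 U of mouse IFN-beta, a type I interferon, and the control group (3 samples) received M-CSF alone. M-CSF, on which monocytes depend to survive and to become macrophages, was thus present in both groups. The RNA of a sample, labelled with the dye Cy3, was read on an array of its own.

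Immunologists know these proteins mainly as labels for cell types. Antibodies to Ly6C (the products of Ly6c1 and Ly6c2) separate the classical from the patrolling monocytes of the mouse, antibodies to Ly6G mark neutrophils, and Ly6A is Sca-1, the antigen used to sort blood stem cells. Several family members are also known to be induced by interferons, so the level of such a label need not stand for a cell type alone. In RNA of a whole culture, more cells that carry a transcript and more of it per cell cannot be told apart.

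The genes arose by duplication, and some remain so alike that a 60-base probe can bind the transcript of another member. The Ly6c2 probe (chr15:74938637-74938695 of mm9, minus strand) and the brighter Ly6c1 probe (chr15:74875495-74875554, minus strand) show this best, and they are printed because they limit what can be said of either gene alone. Capitals mark the bases at which the 2 probes differ.
Ly6c1, bases 1 to 30: tattataGtatcaccatccacacataagta
Ly6c2, bases 1 to 30: tattataCtatcaccatccacacataagta
Ly6c1, bases 31 to 60: tctggggtcctgcagggttcccatgtAtgC
Ly6c2, bases 31 to 60: tctggggtcctgcagggttcccatgtGtgT
With positions counted from the 5′ end of the probe and the Ly6c1 base first, the differences are G8C, A57G and C60T, so 57 of 60 bases are shared. The dimmer Ly6c1 probe (chr15:74877785-74877844, minus strand) has no such counterpart among the other probes of the array, and it is printed because its change differed from that of the pair. Its match to the Ly6c2 transcript was not tested.
Ly6c1, dimmer probe: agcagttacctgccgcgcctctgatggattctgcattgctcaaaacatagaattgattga
The Ly6g probe (chr15:74989023-74989082, plus strand) resembles a probe for the transcript ENSMUST00000089689, with 8 edits within its central 40 bases.
Ly6g: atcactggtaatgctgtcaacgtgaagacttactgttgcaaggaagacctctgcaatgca
No other probe came within 15 edits of a member probe over its 60 bases, or within 8 edits over its central 40. Whether a probe lies in a coding or an untranslated part was not analysed here.

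All values below are log2 of the processed signal minus the 75th percentile of that array, so that 0 is the signal at this percentile and each step of 1 is a doubling. That percentile was between 337 and 352 on the IFN-beta arrays and 791, 765 and 446 on controls 1, 2 and 3. Controls 1 and 2 were nearly the same: over 285 probes with several spots they differed by a robust SD of 0.0493, less than spots of 1 probe differed within an array (0.0540 to 0.139), while other pairs of replicates differed by 0.130 to 0.183. The tests below use the 6 arrays as deposited, and values with controls 1 and 2 averaged and counted as 1 sample, which leaves 2 control samples, stand beside them. Control 3 stood apart from the other 2. The summed level of 17 fibroblast markers was 1.51 to 1.68 with IFN-beta and 293, 343 and 0.650 on controls 1, 2 and 3, in multiples of the 75th percentile, so changes are also given against control 3 alone. All 12 monocyte and macrophage markers (Csf1r, Itgam, Adgre1 and others) lay well above background on all 6 arrays, with summed levels of 613 to 623 with IFN-beta and 474, 456 and 683 on controls 1, 2 and 3. In the tests described below 1 of these markers was higher, 4 were lower and 7 not called. Of all genes at 1 probe each, 13.3% were higher and 8.33% lower. The median log2 fold change of the markers was 0.14, or -0.25 against control 3 alone. All 12 genes of a type I interferon signature (Isg15, Mx1, Ifit1 and others) were higher with IFN-beta, with a median log2 fold change of 4.11, or 3.60 against control 3 alone. The labels do not say whether the replicates of a group were different mice or dishes, and p-values therefore measure only the spread between these arrays, whose number limits the precision. No probe was saturated.

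Of the 10 member probes, 8 were tested, those of every gene but Ly6k, and all 8 were higher with IFN-beta (limma, adjusted p from 1.87e-05 to 0.0223). Over all 29794 probes tested, 14.7% were called higher and 7.63% lower (4393 and 2274 probes, or 1520 and 4410 with spike-in scaling). The 8 probes had a median log2 fold change of 2.79, against 0.14 for all probes tested. Each of the 8 lay well above background on all 3 IFN-beta and all 3 control arrays, so none entered through 1 group only. The IFN-beta and control arrays did not overlap for any of the 8, with the IFN-beta arrays above, as was so for 26.8% of all probes tested (42.1% in either direction). With controls 1 and 2 counted as 1 sample, 7 of the 8 were higher, where 6.56% of all probes were higher, 3.81% lower and 10.4% called in all. Against control 3 alone also 7 were higher, where 8.23% of all probes were higher, 7.21% lower and 15.4% called in all. The exception was Ly6f both times.

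**Figure D1:**
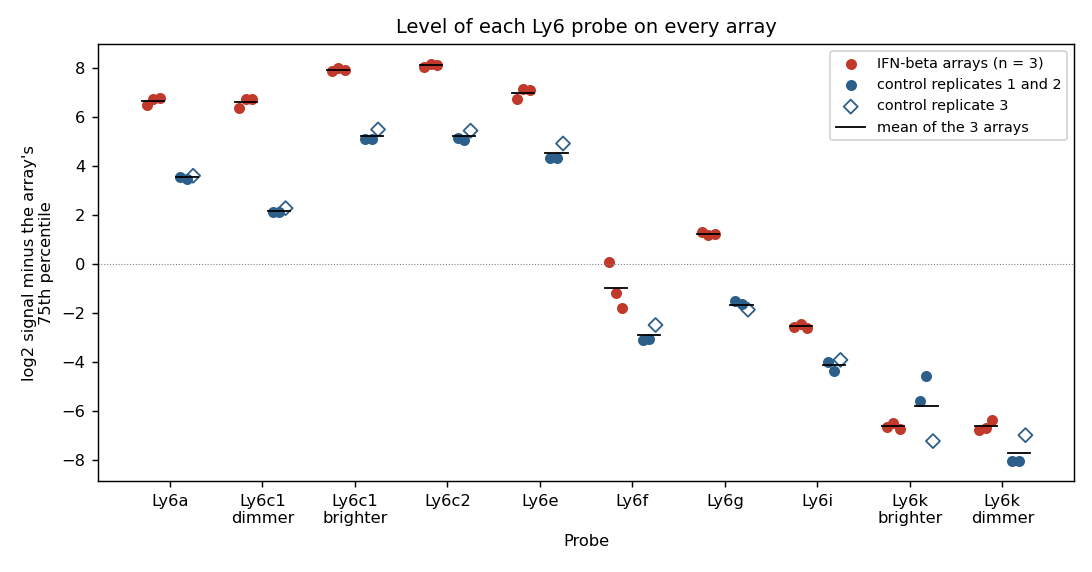
Level of the 10 Ly6 probes on every array (log2 scale, 0 being the 75th percentile of the array), with the 3 IFN-beta arrays (red) left of the 3 controls (blue, control 3 as an open diamond) and a line at the mean of the 3 arrays. For the 8 probes other than those of Ly6k, every IFN-beta array lies above every control.

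Ly6c1 and Ly6c2 encode the Ly6C antigen of monocytes. The Ly6c2 probe stood at 8.04, 8.17 and 8.13 on IFN-beta arrays 1, 2 and 3, against 5.13, 5.06 and 5.44 on controls 1, 2 and 3. The brighter Ly6c1 probe, which shares all but 3 of its bases, stood at 7.88, 8.00 and 7.90 with IFN-beta, against 5.12, 5.09 and 5.49 on the controls. The levels were thus high on the controls already and higher still on every IFN-beta array, with control 3 the highest of the controls for both probes. The Ly6c2 probe rose by 2.90 ± 0.17 (± SE on the log2 scale, n = 3 arrays a group, as below), a 7.49-fold difference (limma adjusted p = 7.23e-05). The brighter Ly6c1 probe rose by 2.70 ± 0.17, or 6.49-fold (limma adjusted p = 1.07e-04). Against control 3 alone the changes were 2.67 and 2.44, and with controls 1 and 2 counted once 2.85 and 2.63 (limma adjusted p = 2.82e-04 and 4.36e-04).

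The dimmer Ly6c1 probe had the greatest change of the 8 probes. It stood at 6.38, 6.74 and 6.75 with IFN-beta, against 2.11, 2.13 and 2.28 on controls 1, 2 and 3. Every IFN-beta array lay far above every control, and the controls lay close together. The rise was 4.45 ± 0.17, a 21.8-fold difference (limma adjusted p = 1.87e-05), with 4.34 against control 3 alone and 4.42 with controls 1 and 2 counted once (limma adjusted p = 6.25e-05). Within each array the dimmer probe differed from the brighter one by -1.51, -1.27 and -1.15 on IFN-beta arrays 1, 2 and 3, against -3.01, -2.96 and -3.21 on controls 1, 2 and 3, a change of 1.75 in the difference. An exact permutation test, 2-sided, gave p = 0.10, the smallest that 3 against 3 arrays allow. This pair of probes was compared after its values were seen.

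Ly6a encodes Sca-1. Its probe (chr15:74825553-74825612 of mm9, minus strand) stood at 6.47, 6.74 and 6.78 on the IFN-beta arrays, against 3.54, 3.48 and 3.60 on controls 1, 2 and 3. The 3 controls were level, control 3 included. Ly6a rose by 3.12 ± 0.16, or 8.72-fold (limma adjusted p = 5.96e-05), by 3.07 against control 3 alone and by 3.11 with controls 1 and 2 counted once (limma adjusted p = 2.19e-04). Of 11 markers of blood stem and progenitor cells, of which the stem cells carry Sca-1, 9 were tested. Of these 4 were higher and none lower, with a median of 0.59, where 13.3% of all genes at 1 probe each were higher and 8.33% lower. Against control 3 alone 4 were higher and 1 lower, with a median of 0.35, where 8.04% of all genes were higher and 7.94% lower. Their summed level was 33.3 to 37.3 with IFN-beta and 24.5, 24.5 and 20.5 on controls 1, 2 and 3, and Slamf1 stayed at background on all 6 arrays. Of 13 endothelial markers, another cell type that carries Ly6A, 1 of 7 tested was higher and 1 lower, with a median of -1.05, and against control 3 alone 3 were higher and none lower, with a median of 0.63. Their summed level was 14.8 to 15.9 with IFN-beta and 35.7, 27.8 and 11.5 on controls 1, 2 and 3. The part of stem, progenitor and endothelial cells in the rise of Ly6a was not tested.

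Ly6e encodes an antigen of thymocytes and many other cells that is known to alter the entry of viruses. Its probe (chr15:74789592-74789651, plus strand) stood at 6.72, 7.12 and 7.09 with IFN-beta, against 4.33, 4.31 and 4.92 on controls 1, 2 and 3. Control 3 was the highest of the controls and still below every IFN-beta array. The rise was 2.45 ± 0.22, or 5.48-fold (limma adjusted p = 4.14e-04), with 2.06 against control 3 alone and 2.36 with controls 1 and 2 counted once (limma adjusted p = 0.00151).

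Ly6g encodes the antigen by which neutrophils are recognised, and its probe was far dimmer on the controls than the 75th percentile. The levels were 1.28, 1.17 and 1.22 on the IFN-beta arrays, against -1.51, -1.62 and -1.87 on controls 1, 2 and 3. Here control 3 was the lowest of the controls, unlike the other 7 tested probes. Ly6g rose by 2.89 ± 0.16, or 7.42-fold (limma adjusted p = 7.23e-05), by 3.10 against control 3 alone and by 2.94 with controls 1 and 2 counted once (limma adjusted p = 2.50e-04). Neutrophil markers moved in the same direction: 16 of 21 were higher and none lower (13.3% and 8.33% of all genes at 1 probe each), with a median of 1.40. Of the 21, 11 were higher and none lower against control 3 alone, with a median of 1.02, where 8.04% of all genes were higher and 7.94% lower. Their summed level was 773 to 960 with IFN-beta and 451, 432 and 580 on controls 1, 2 and 3, and all 21, Mpo, Elane and Ltf among them, lay well above background on every array. Their part in the rise of Ly6g was not tested.

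Ly6i and Ly6f had the smallest changes of the tested members. The Ly6i probe (chr15:74810484-74810543, minus strand) stood at -2.56, -2.46 and -2.63 with IFN-beta, against -4.02, -4.39 and -3.92 on controls 1, 2 and 3, without overlap. Ly6i rose by 1.56 ± 0.18, or 2.95-fold (limma adjusted p = 0.00117), by 1.37 against control 3 alone and by 1.51 with controls 1 and 2 counted once (limma adjusted p = 0.00442). The Ly6i probe was dim, and the size of this rise depends on the processing. Before scaling its signals were 59.7, 61.2 and 56.4 with IFN-beta, against 48.6, 36.5 and 29.4 on controls 1, 2 and 3. With normexp background correction the change was 1.08. The Ly6f probe (chr15:75102462-75102522, plus strand) stood at 0.08, -1.19 and -1.82 with IFN-beta, against -3.13, -3.05 and -2.50 on controls 1, 2 and 3. IFN-beta array 1 was much higher than the other two, and the gap between the lowest IFN-beta array and the highest control was smaller than the spread among the IFN-beta arrays. Before scaling its signals were 373, 148 and 99.2, against 90.4, 92.1 and 79.1. Ly6f rose by 1.92 ± 0.45 (limma adjusted p = 0.0223), or by 1.35 with normexp background correction. The call was lost without control 1, control 2 or IFN-beta 2 (limma adjusted p = 0.0652, 0.0602 and 0.0606). It was also lost with controls 1 and 2 counted once and without a filter on dim probes (limma adjusted p = 0.0605 and 0.0757). Against control 3 alone the change was 1.52 ± 0.67.

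Ly6k, which encodes an antigen of the testis known for its place in sperm function, was the one member too dim to test. Neither of its probes was well above background on any IFN-beta array. The brighter one (chr15:74627529-74627588, minus strand) stood at -6.67, -6.49 and -6.73 with IFN-beta, against -5.60, -4.57 and -7.24 on controls 1, 2 and 3, and was well above background on controls 1 and 2 alone. The other (chr15:74630955-74631014, plus strand) was not well above background on any array. No fold change is given for either.

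**Figure D2:**
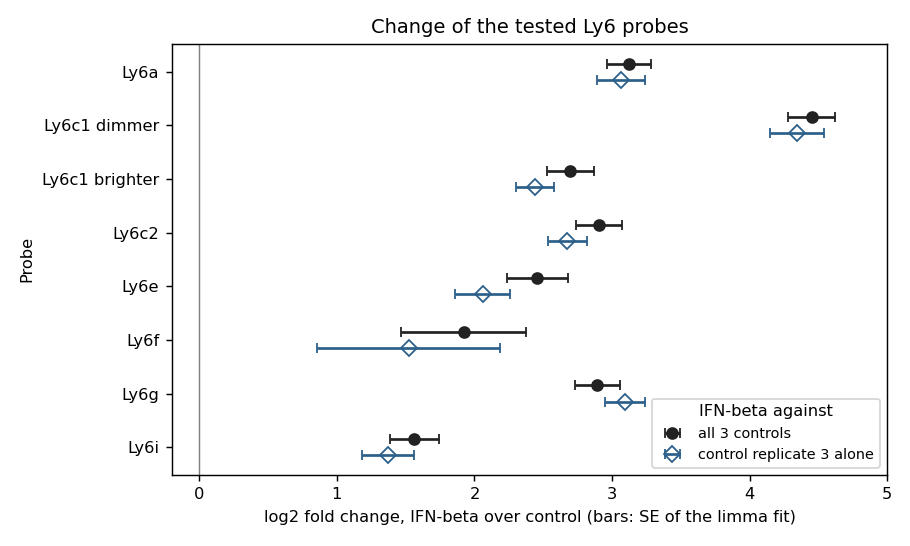
Log2 fold change of the 8 tested Ly6 probes, IFN-beta over control, with the SE of the limma fit as bars, against all 3 controls (filled circles) and against control 3 alone (open diamonds). The dimmer Ly6c1 probe lies highest at 4.45, the others between 1.56 and 3.12, and against control 3 alone the values run from 1.37 for Ly6i to 4.34.

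No member differed between control 3 and the other controls in limma (adjusted p from 0.109 for Ly6e to 0.751 for Ly6a, control 3 minus controls 1 and 2 from -0.31 for Ly6g to 0.60 for Ly6f), where 3.72% of all probes were higher, 4.85% lower and 8.57% called in all. Slide 1 held IFN-beta array 1 and the 3 controls, and slide 2 held IFN-beta arrays 2 and 3. With slide as a block all 8 probes were higher (of all probes 3.65% were higher, 1.97% lower and 5.62% called in all), with log2 fold changes from 1.55 for Ly6i to 4.21 for the dimmer Ly6c1 probe. Within slide 1 the estimates were the same and 6 of the 8 were called (of all probes 1.35% were higher, 0.628% lower and 1.97% called in all). Ly6e (limma adjusted p = 0.0560) and Ly6i (0.0816) were not. Ly6f was 2.98 in both of these settings, which rest on IFN-beta array 1.

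Differences between members within an array are not moved by a constant shift of that array, such as the 75th percentile, though quantile normalization can move them, and 4 pairs were set against each other. Ly6a minus Ly6e was -0.31 on average with IFN-beta and -0.98 on the controls, so Ly6a gained 0.67 on Ly6e, or 1.01 against control 3 alone. Ly6a also gained 0.43 on the brighter Ly6c1 probe (mean differences of -1.26 and -1.69), or 0.63 against control 3 alone. Ly6i lost against Ly6a: the difference was -9.21 with IFN-beta and -7.65 on the controls, a change of -1.56, or -1.69 against control 3 alone. The Ly6i probe was dim, and with normexp background correction this change was -1.91. The near-identical Ly6c1 and Ly6c2 probes moved least apart, with -0.19 and 0.02, a change of -0.21, or -0.23 against control 3 alone. In all 4 pairs the IFN-beta and control arrays did not overlap. The same held for 42.1% of all single probes tested, in either direction, and the share among pairs of probes was not determined. The exact permutation p, 2-sided, was 0.10 for each, both raw and adjusted over the 4 pairs, which is the smallest this design allows, so none can pass 0.05.

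The members were next set in their place on chromosome 15. Their probes span 475 kb of mm9, from Ly6k at the low end through Ly6e, Ly6i, Ly6a, Ly6c1, Ly6c2 and Ly6g to Ly6f, and 18 other probes lie among them. Only 5 of these 18 were bright enough to test, of which 3 were higher and none lower, with a median log2 fold change of 1.92. Of all probes tested, 14.7% were higher and 7.63% lower, with a median of 0.14. The transcript ENSMUST00000089689, whose probe resembles that of Ly6g, stood at 3.99, 4.13 and 4.11 with IFN-beta, against -0.04, -0.04 and 0.19 on controls 1, 2 and 3. It rose by 4.04 ± 0.16 (limma adjusted p = 1.87e-05), more than Ly6g itself, and by 3.89 against control 3 alone. ENSMUST00000190944, between Ly6c2 and Ly6g, rose by 2.78 ± 0.25 (limma adjusted p = 3.97e-04) and BB157357, below Ly6e, by 1.92 ± 0.28 (limma adjusted p = 0.00380). They rose by 2.27 and 1.25 against control 3 alone. The files pair none of these 3 with a gene symbol. NAP072242-1, just below the Ly6g probe, did not pass (0.14 ± 0.28, limma adjusted p = 0.738, with 0.71 against control 3 alone), nor did Gml2, a gene of the same fold near Ly6k (0.38 ± 0.17, limma adjusted p = 0.142, with 0.21 against control 3 alone). Ly6m, which lies between Ly6k and Ly6e, was well above background on 2 of 3 IFN-beta arrays and on no control, and was not tested. It stood at -4.77, -4.24 and -4.13 with IFN-beta, against -6.35, -6.57 and -6.05 on controls 1, 2 and 3. Before scaling the signals were 12.9, 17.9 and 19.9, against 9.69, 8.06 and 6.74. The control values are at background, so no fold change is given.

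**Figure D3:**
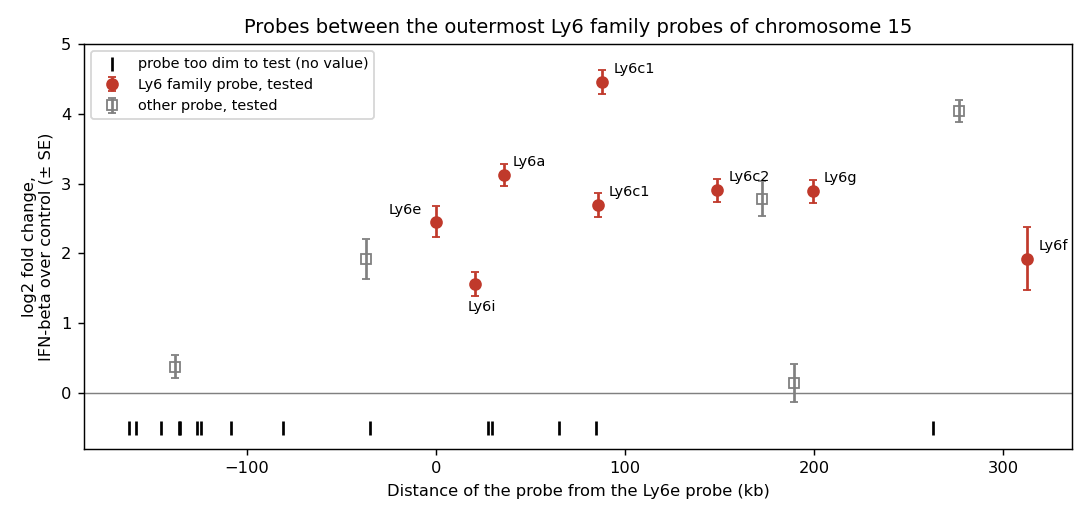
Log2 fold change (± SE, IFN-beta over control) of the tested probes against the distance in kb from the Ly6e probe on chromosome 15, with Ly6 family probes as red circles, other probes as grey squares and ticks at the bottom for probes too dim to test. The 8 member probes and 3 of the 5 others lie above 1.5, and the 2 squares near 0 are Gml2 and NAP072242-1.

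The stretch before the start of transcription is also alike among the members. RefSeq windows of 300 bases (GRCm38.p6) were on hand for 4 members alone, Ly6c1, Ly6c2, Ly6f and Ly6g. The 250 bases before the start are printed to show how alike they are. All 7 tested member genes were higher, not these 4 alone, and a link between shared bases and the rise was not tested. Capitals mark the 1 run of at least 10 bases that all 4 share, 11 bases long.
Ly6c1 (chr15:75048838-75049087, minus strand): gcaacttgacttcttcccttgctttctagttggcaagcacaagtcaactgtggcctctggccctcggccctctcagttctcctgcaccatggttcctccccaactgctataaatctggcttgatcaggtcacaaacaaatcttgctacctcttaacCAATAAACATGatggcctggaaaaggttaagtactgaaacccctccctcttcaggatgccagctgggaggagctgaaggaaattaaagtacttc
Ly6c2 (chr15:75111972-75112221, minus strand): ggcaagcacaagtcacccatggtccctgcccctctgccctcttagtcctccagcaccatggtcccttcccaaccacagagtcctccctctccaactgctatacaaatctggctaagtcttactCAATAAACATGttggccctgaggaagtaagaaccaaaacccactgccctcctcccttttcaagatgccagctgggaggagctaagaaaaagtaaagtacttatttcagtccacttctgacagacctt
Ly6f (chr15:75268171-75268420, plus strand): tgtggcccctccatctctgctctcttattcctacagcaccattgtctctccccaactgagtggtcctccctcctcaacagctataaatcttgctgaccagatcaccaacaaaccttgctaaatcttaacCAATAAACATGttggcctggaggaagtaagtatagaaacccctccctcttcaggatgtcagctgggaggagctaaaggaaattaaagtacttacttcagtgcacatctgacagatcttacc
Ly6g (chr15:75155011-75155260, plus strand): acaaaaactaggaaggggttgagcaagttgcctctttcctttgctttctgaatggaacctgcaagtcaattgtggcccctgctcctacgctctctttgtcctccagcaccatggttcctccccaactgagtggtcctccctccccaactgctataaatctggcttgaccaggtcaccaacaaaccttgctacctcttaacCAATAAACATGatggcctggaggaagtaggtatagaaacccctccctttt
Aligned in pairs, the windows were identical at 78.2% (Ly6c1 and Ly6c2) to 87.8% (Ly6f and Ly6g) of the aligned bases. The core of the interferon-stimulated response element, searched on both strands as GAAA, any 2 bases and GAAA again, was in none of the 7 windows of these 4 genes and in 3.44% of all 32851 windows. A second motif, the gamma-activated site (TTC, any 3 bases and GAA), was also in none of the 7 and in 8.30% of all windows. That says only that these letters are not in these windows.

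Other genes of the same protein fold, Gml2 and several more of chromosome 15 among them, did not share one direction. Of 36 other Ly6/uPAR genes on the array 16 were tested, and 3 were higher, 2 lower and 11 not called. Their median log2 fold change was -0.14, but 0.11 against control 3 alone, so its sign depends on the controls used. Over all genes tested (1 probe each) 21.6% were called, with a median of 0.11. Cd177, which encodes another surface antigen of neutrophils, rose by 2.18 ± 0.32 (limma adjusted p = 0.00386), with levels of 0.02, 1.02 and 0.06 on the IFN-beta arrays, against -2.10, -2.01 and -1.34 on controls 1, 2 and 3. Its rise was 1.71 against control 3 alone (limma adjusted p = 0.0428). Ly6g5b, of the Ly6 cluster on chromosome 17, rose by 0.99 ± 0.23 and Plaur, the urokinase receptor, by 0.68 ± 0.20 (limma adjusted p = 0.0203 and 0.0485), and both calls were lost against control 3 alone, where the values were 0.73 and 0.29 (limma adjusted p = 0.134 and 0.224). Bambi, a decoy receptor of the TGF-beta family, fell by 1.03 ± 0.17 (limma adjusted p = 0.00613), with -1.19 against control 3 alone. Ly6g6c fell by 2.35 ± 0.48 (limma adjusted p = 0.0132), with -2.63 against control 3 alone (limma adjusted p = 0.0650), and was well above background on 2 of 3 IFN-beta arrays. Cd59a, an inhibitor of complement, was at -1.08 ± 0.36 (limma adjusted p = 0.0672) and at -0.20 against control 3 alone, and on control 3 its level lay within the range of the IFN-beta arrays. The counts of higher and lower genes were 1 and 6 with spike-in scaling and 5 and 7 without control 3, and 1 gene was higher without control 1, control 2 or IFN-beta 2.

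The genes that make and remodel the GPI anchor did not share one direction either. All 30 on the array were tested, and 6 were higher, 2 lower and 22 not called. Of all genes at 1 probe each, 13.3% were higher and 8.33% lower. The 30 genes had a median of 0.28 (0.11 for all genes), or 0.03 against control 3 alone. Pigg, which modifies the anchor's second mannose, rose by 0.95 ± 0.16 (limma adjusted p = 0.00665), Pigl, an early enzyme of the pathway, by 0.95 ± 0.24, Mppe1, which trims the anchor, by 0.83 ± 0.21 and Pigo, which adds its bridge to the protein, by 0.62 ± 0.16 (limma adjusted p from 0.0287 to 0.0319). The last 3 had 0.52, 0.41 and 0.63 against control 3 alone (limma adjusted p = 0.186, 0.126 and 0.0744). Pgap1, which removes a lipid chain from the finished anchor, fell by 1.75 ± 0.25 (limma adjusted p = 0.00311), with -1.55, -1.75 and -1.65 on IFN-beta arrays 1, 2 and 3, against -0.20, -0.15 and 0.65 on controls 1, 2 and 3. Pgap4, which adds a sugar side branch to the anchor, fell by 2.69 ± 0.57 (limma adjusted p = 0.0156), with -1.29 against control 3 alone (limma adjusted p = 0.0787). Of these 8 genes Pigg (0.87) and Pgap1 (-2.30) were called against control 3 alone, the counts being 1 higher and 1 lower. Without control 1, control 2 or IFN-beta 2 the count of higher genes was 1, without IFN-beta 3 it was 2, without IFN-beta 1 it was 3 and without control 3 it was 13, and with spike-in scaling 0 were higher and 4 lower.

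**Figure D4:**
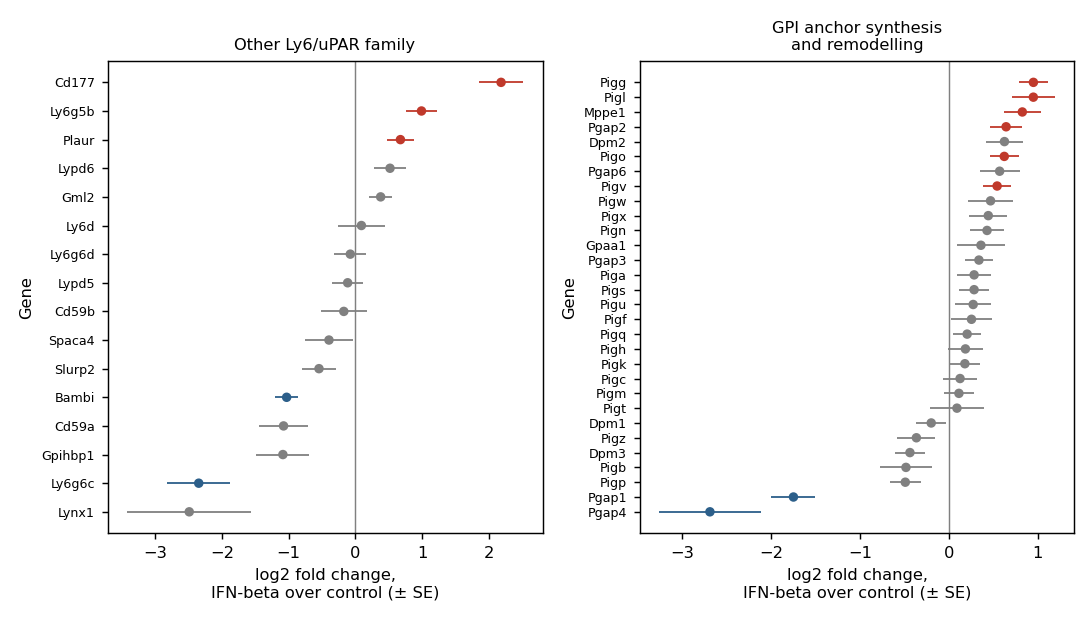
Log2 fold change (± SE, IFN-beta over control) of the tested genes of 2 lists, other members of the Ly6/uPAR fold (left, 16 genes) and genes of GPI anchor synthesis and remodelling (right, 30 genes). Red marks genes called higher, blue genes called lower and grey genes not called. The points of both lists lie on either side of 0, with 3 and 6 red points and 2 and 2 blue ones.

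For each tested member the 3 named genes with the most similar profile were found among 14524, by the root mean square distance between profiles over the 6 arrays after each was centred on its mean. Nearest to Ly6c2 were Mov10, at 0.0419, Clec4b2 (0.0971) and Ddx58 (0.101), and nearest to the brighter Ly6c1 probe were Slfn5 (0.0684), Ddx58 (0.106) and Trim34b (0.108). Nearest to Ly6e were Helz2 (0.0700), H2-T10 (0.0896) and Osbp2 (0.0982), and to Ly6g Gbp4 (0.0896), Ramp3 (0.0905) and Tmem26 (0.149). Ednrb, Ddit3 and Mov10 were nearest to Ly6a (0.148, 0.150 and 0.155). Gm6756, Gm11127 and B430306N03Rik were nearest to Ly6i (0.0743, 0.0796 and 0.0921). Ly6f had no close match, its nearest genes Gm4759, Cstdc5 and Vmn1r49 being at 0.309, 0.318 and 0.324. These distances describe 6 arrays of 2 conditions.

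**Figure D5:**
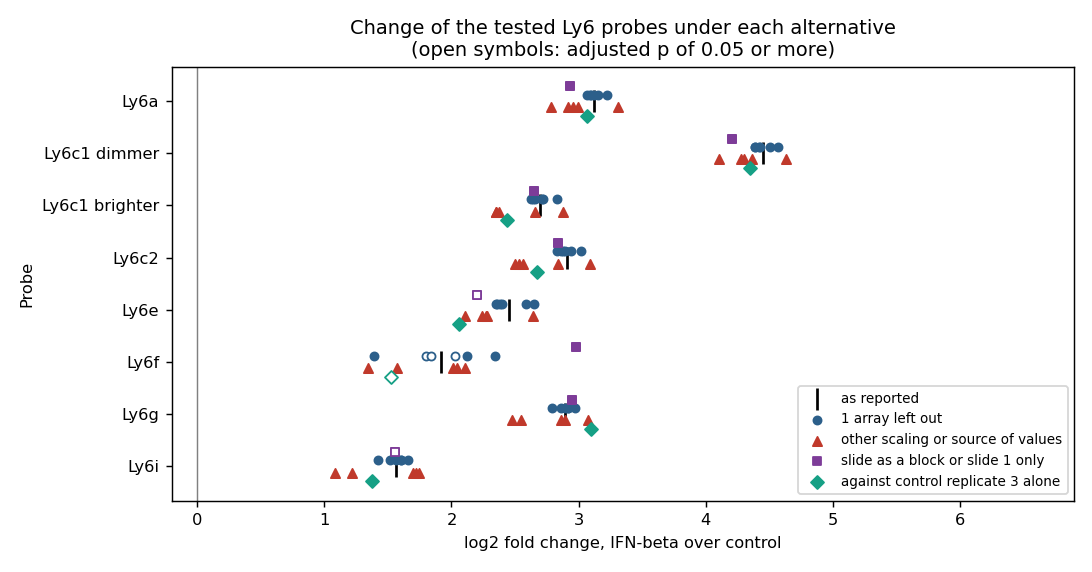
Log2 fold change of the 8 tested Ly6 probes (IFN-beta over control) as reported (black bar) and when 1 array was left out, another scaling or source of values was used, slide was taken into account, or control 3 alone was the reference. Open symbols mark an adjusted p of 0.05 or more and occur for Ly6e, Ly6f and Ly6i, and no value lies below 0.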

How the data were processed

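Per the file headers, the authors extracted the arrays with Agilent Feature Extraction 12.0.3.1, and the deposited scanner output gives each spot's intensity, not normalized between arrays. The deposited value table holds log2 values whose scaling is not given in the sources used here; the submitters' processing notes name limma. Its columns tracked the same arrays' scanner values on the log2 scale (r from 0.996 to 0.999), and it served as an alternative. Outlier spots were left out, which set aside 7 probes. Spots of a probe were averaged, and a probe was tested where all arrays of 1 group or of both read it well above background (29794). Groups were compared in limma 3.58.1 (R 4.3.3) per probe, with Benjamini-Hochberg adjustment and a threshold of 0.05. Against control 3 alone, a fit of 3 groups assumes that this array varies like the rest. Related genes are shown by their brightest probe. Named genes are all members, up to 4 called genes per direction in each related list, and the 3 nearest profiles; Cd59a, the uncalled probes and Ly6m in the locus were chosen after their values were seen. Probe positions are those of the files (mm9). Promoters are RefSeq's. Of 56605 probes 32994 were named by accession, 10224 by symbol and 520 by synonym in the RefSeq table (GRCm38.p6), and 12867 kept the file's name. The fit was tested on simulated data, with independent arrays and the spread of the IFN-beta arrays in both groups. The likeness of controls 1 and 2 and the distance of control 3 were not simulated. The members and lists were chosen with earlier results of these data known. Alternatives are given in the closing section, and control replicates 1 and 2 were averaged as one after the data were seen.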

Additional observations from a re-analysis of the deposited data

How the results depend on the processing

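The 8 tested member probes had positive changes in every alternative that held them, and none reversed. There were 21 alternatives, or 20 for the dimmer Ly6c1 probe. The choice of filter, 1 probe per gene, trend and robust, and a replicate block leave the estimate unchanged, so its sign was fixed. With 1 probe per gene 7 of 7 were called. Without control 1, control 2 or IFN-beta 2, without a filter on dim probes and with controls 1 and 2 averaged, 7 were called. In the rest 8 were called, apart from the fits within slide 1 and against control 3 alone, given above. Other calls were less stable. Genes of the other Ly6/uPAR fold called higher and lower numbered 3 and 2 as reported, but 1 and 6 with spike-in scaling, 5 and 9 with array weights, 1 and 0 with slide as a block, 0 and 0 within slide 1, and 1 and 1 against control 3 alone; 1 was lower without a filter on dim probes, and 1 higher with controls 1 and 2 averaged. With 1 array left out, 1 to 5 were higher and 2 to 7 lower. GPI anchor genes, 6 higher and 2 lower as reported, numbered 0 and 4 with spike-in scaling, 21 and 5 with array weights, 1 and 1 without a filter on dim probes and against control 3 alone, and 0 and 0 with slide as a block and within slide 1. Of these genes 4 were lower after normexp correction, 1 lower with trend and robust, 2 higher with median scaling, and 1 higher with controls 1 and 2 averaged. With 1 array left out, 1 to 13 were higher and 1 to 3 lower, with 13 higher without control 3 and 3 lower without IFN-beta 1. Of the 5 tested probes among the members 1 was higher within slide 1, against 3. Nothing in the labels says that the replicate numbers pair the samples. Correlations of deviations between arrays of the same number were 0.06, 0.03 and 0.08, which with 3 arrays a group cannot settle it. With a replicate block all 8 member probes stayed called and 2 GPI anchor genes were higher. The cause of these shifts was not tested. The median of all probes was 0.14 as reported, -0.20 with spike-in scaling and 0.33 with median scaling.
Over all probes, 4393 were higher and 2274 lower as reported, but 9255 and 2134 after normexp correction, 2928 and 1396 with median scaling, 1861 and 820 without a filter on dim probes, 13560 and 6342 with array weights, and 10156 and 4101 without control 3.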

Other observations

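Ly6C and the genes that define monocyte subsets beside it did not move as one. Of 11 markers of classical monocytes, 3 were higher, 1 lower and 7 not called, with a median log2 fold change of 0.14, where 13.3% of all genes were higher and 8.33% lower. Against control 3 alone 4 were higher and 2 lower, with a median of -0.17, where 8.04% of all genes were higher and 7.94% lower. Their summed level was 329 to 369 with IFN-beta and 175, 180 and 158 on controls 1, 2 and 3, in multiples of the array's 75th percentile. Of 12 markers of non-classical monocytes, 1 was higher, 3 lower and 8 not called, with a median of 0.00, and against control 3 alone 2 were higher and 1 lower. Their summed level was 89.4 to 110 with IFN-beta and 114, 104 and 126 on the controls. Plasmacytoid dendritic cells, which also carry Ly6C, were represented by 10 markers, of which 4 were higher and none lower (2 higher and none lower against control 3 alone), with summed levels of 47.0 to 50.7 with IFN-beta and 57.3, 53.1 and 48.1 on controls 1, 2 and 3. T and NK cell markers had summed levels of 3.93 to 5.60 with IFN-beta and 4.84, 4.23 and 4.04 on the controls, with Ncr1 not well above background on any array. B and plasma cell markers had 2.38 to 2.47 and 3.98, 3.92 and 4.03, with Cd79a and Igll1 not well above background on any.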
